A study of Mus musculus with 6 samples.

Results

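Cyclins, cyclin-dependent kinases, kinetochore proteins, condensin, mitotic kinesins and related genes were followed in mouse embryonic fibroblasts (MEFs) with and without a full dose of Nipbl, the protein that loads cohesin onto chromosomes. Members were chosen by gene name and by strand, with no use of their values. Of 38483 genes listed, 155 had a matching name, and 77 of them lay on the minus strand and are the members described here. The 78 matching genes of the plus strand were listed at 0 in every culture, as were all 19214 plus-strand genes, so nothing can be said of Plk1, Aurkb, Kif11, Cenpe, Cdk4 or Mad2l1. Of the 77 members, 76 had a count in any culture and 71 had enough reads to be tested, among 9061 genes tested in all.

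RNA-seq was performed on 3 cultures of WT MEFs and 3 cultures of Nipbl+/- MEFs, which carry a heterozygous knockout of Nipbl, from the CD1 strain. Both genotypes came from littermate embryos of a single pregnant mouse, dissected at mid-gestation with limbs, brain and internal organs taken away, and were grown in the same serum-containing medium to passage 3 with no treatment given in the labels. A MEF culture is a mixture of dividing embryonic cells rather than a clone, and the knockout was present in all of its cells. The labels give MEFs as source and cell type, although their extraction text speaks of mouse ES cells. Total RNA was depleted of rRNA, so both polyadenylated and other transcripts were sequenced. Each culture gave between 20307454 and 25990783 counted reads. The labels and methods give the cultures of a genotype as biological replicates, and p-values measure only the spread between these cultures.

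A dividing cell copies its DNA in S phase under the control of cyclin E, cyclin A and Cdk2, and enters mitosis when cyclin A and cyclin B activate Cdk1. Condensin then compacts the chromosomes, kinetochores built on the centromeres attach them to spindle microtubules, and the checkpoint holds back the anaphase-promoting complex until every chromosome is attached. Many of these genes are transcribed mainly in G2 phase and mitosis, and are therefore known as markers of proliferating cells. In RNA from a whole culture, a larger share of cells in those phases and more RNA per cell cannot be told apart.

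Nipbl itself was lower in the mutant cultures. The gene (chr15:8291225-8444463, minus strand, mm10) stood at 128, 145 and 135 CPM in WT replicates 1 to 3, and at 100.7, 101.3 and 100.3 CPM in Nipbl+/- replicates 1 to 3. CPM are counts scaled to 1000000 counts in a library, with TMM factors correcting the library sizes. The groups did not overlap, and the log2 fold change was -0.43 (SE 0.06, adjusted p = 0.0213). Each adjusted p given here comes from the quasi-likelihood test of edgeR and was adjusted after Benjamini and Hochberg for the 9061 genes tested, and a gene passed with a value under 0.05. With 1 culture left out, Nipbl passed the test in 3 of 6 fits.

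The mitotic genes among the members were higher in Nipbl+/- MEFs, by about 1.3-fold. Of 71 tested members, 13 rose and 0 fell, which is 18.3% against 1.04% of all genes that rose and 0.916% that fell. The 13 were Kif23, Mki67, Ncaph, Cdca2, Ncapd2, Bub1, Ccna2, Ccnb2, Kif2c, Cenpq, Cdk1, Ect2 and Cdk2, with log2 fold changes between 0.33 and 0.59. With DESeq2, 0 members fell as well. At an unadjusted p under 0.05, 31 members were higher and 2 were lower, beside 8.98% and 7.95% of all genes. In 33 members all 3 Nipbl+/- cultures stood above all 3 WT cultures (46.5%, against 12.0% of all genes), and in 4 members all 3 stood below (10.8% of all genes). The median log2 fold change of the tested members was 0.14, compared with -0.01 for all genes tested.

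Most of this difference lay in the genes that act in mitosis itself. A list of core mitotic genes, which covers cyclins A2, B1 and B2, Cdk1, Cdc25, condensin, the outer kinetochore, the checkpoint, mitotic kinesins and Mki67, names 51 genes, of which 23 lie on the minus strand and were all tested. Of these 23, 11 rose and 0 fell, 22 had a log2 fold change above 0 (48.4% of all genes did), and 22 had an unadjusted p under 0.05. In the same 22 genes the cultures of the genotypes did not overlap. The median log2 fold change was 0.40, with a range from -0.08 in Spc24 to 0.59 in Kif23. Among the other 48 tested members, 2 rose (Cdk2 and Cenpq), 31 were above 0 and 17 below, and the median was 0.05. The list was written with earlier results of these cultures known and is not independent evidence of the direction.

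The core genes together took 0.0902%, 0.102% and 0.101% of the counts of WT replicates 1 to 3, and 0.129%, 0.127% and 0.147% of those of Nipbl+/- replicates 1 to 3. Nipbl+/- replicate 3 was the highest culture of its genotype in 19 of the 23 genes, and Nipbl+/- replicate 2 the lowest in 14. Among the WT cultures, replicate 2 was the highest in 13 and replicate 1 the lowest in 13. The shift was therefore not of equal size in each mutant culture. With Nipbl+/- replicate 3 left out, the median log2 fold change of the core genes was 0.33. Of the 23 genes, 22 were above 0, which their lack of overlap between genotypes made nearly certain.

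**Figure D1:**
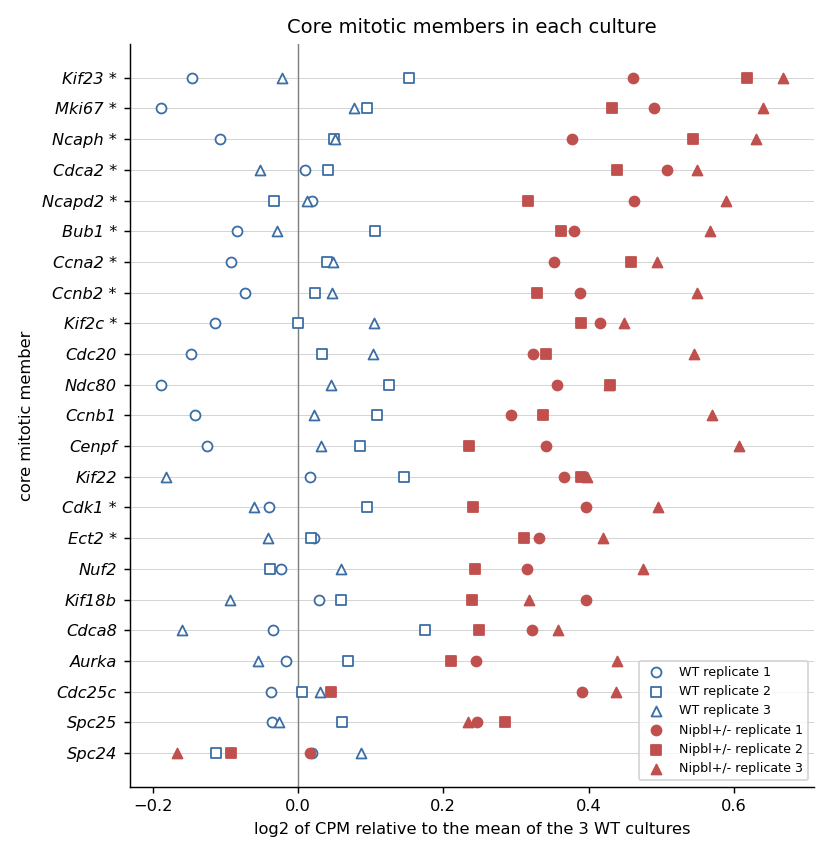
Level of each of the 23 core mitotic members in each culture, as log2 of its CPM relative to the mean of the 3 WT cultures (x axis), with genes ordered by fold change (y axis). Open blue symbols are WT and filled red symbols Nipbl+/- cultures, with the symbol shape giving the replicate, and an asterisk marks the 11 genes that passed the test. In 22 genes every red symbol lies to the right of every blue one, and Spc24 is the exception.

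The calls on single genes depended on which culture was left out. With 1 culture left out, 0 members passed the test without WT replicate 1, 0 without Nipbl+/- replicate 1, 0 without replicate 2 and 0 without replicate 3, while 3 passed without WT replicate 3 and 16 without WT replicate 2. In these 6 fits the number of genes that rose among all genes was 2, 1, 3, 34, 26 and 130 in the same order. In every fit 22 of 23 core genes were above 0, and 21 or 22 had an unadjusted p under 0.05. As the genotypes did not overlap in 22 of these genes, leaving out 1 culture could hardly change their direction. The kept direction is therefore not separate support. DESeq2 called 20 members higher, 17 of them core genes, beside 2.62% of all genes, and edgeR's exact test 20, beside 2.42%. WT replicates 1 and 2 and Nipbl+/- replicate 3 expressed the Y-linked gene Ddx3y at 243 to 266 CPM, and the other 3 cultures expressed Xist at 301 to 361 CPM, so sex-linked genes split the cultures across the genotypes. With the Xist level as a covariate, 15 members passed the test, beside 1.13% of all genes.

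The start sites of these genes were compared next, because genes of G2 phase and mitosis are known to carry a CHR element and CCAAT boxes near the start, read by the DREAM and MuvB complexes and by NF-Y. RefSeq windows running from 250 bases before to 50 bases after the start (GRCm38.p6, the same coordinates as mm10) were matched to 67 of the 77 members. In 56 tested members the RefSeq start lay within 500 bases of the gene start of the files, 17 core and 39 other members. The letters TTTGAA of the CHR, on either strand, occurred in 13 of 17 core windows (76.5%), 5 of 39 other windows (12.8%) and 17.9% of all 32851 windows. CCAAT occurred in 14 of 17 core windows (82.4%), 17 of 39 others (43.6%) and 37.4% of all. Both occurred in 12 of 17 (70.6%), 3 of 39 (7.69%) and 6.95%, and in no core window did the letters overlap. The E2F letters TTTNNCGC occurred in 2 of 17 core and 4 of 39 other windows, and in 5.17% of all. GGCGGGAA occurred in 0 of 17, 4 of 39 and 2.19%. In the 10 windows of members that rose, the CHR letters occurred in 6, CCAAT in 9, TTTNNCGC in 3 and GGCGGGAA in 0. A match describes letters only and does not show that a factor was bound, and Ccna2, Cdca2 and Kif2c were not among the windows. The core list was written as a list of mitotic genes, the class known to carry these letters. A higher share in core windows follows from that choice and is not evidence on the difference between genotypes.

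Of the 10 windows of members that rose, 6 held both the CHR and the CCAAT letters. Core members that did not pass the test also held both, namely Aurka, Cdc20, Cenpf, Kif18b, Kif22 and Spc25. Of the 12 core members that hold both sets of letters, 6 rose, so holding both was not particular to members that rose. The following stretches show 5 of these 12, which were not drawn by rule, and 4 of the 5 rose. Each is the 150 bases just before the RefSeq start, which lay 0 to 26 bases from the start in the files, read 5′ to 3′ on the minus strand, with both sets of letters in capitals. The CHR appears as TTTGAA, and a CCAAT box on the opposite strand reads ATTGG.
Cdk1 (GRCm38.p6 chr10:69352913-69353062): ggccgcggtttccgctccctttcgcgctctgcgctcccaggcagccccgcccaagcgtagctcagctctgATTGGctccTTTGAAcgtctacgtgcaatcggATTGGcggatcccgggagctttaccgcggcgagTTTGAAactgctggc
Cdc20 (GRCm38.p6 chr4:118437344-118437493): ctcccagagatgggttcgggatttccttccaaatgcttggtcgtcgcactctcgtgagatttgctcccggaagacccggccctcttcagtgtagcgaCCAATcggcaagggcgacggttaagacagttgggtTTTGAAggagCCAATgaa
Ect2 (GRCm38.p6 chr3:27153879-27154028): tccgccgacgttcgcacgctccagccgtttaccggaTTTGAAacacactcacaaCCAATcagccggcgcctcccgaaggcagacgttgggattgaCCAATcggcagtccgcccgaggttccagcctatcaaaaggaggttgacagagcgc
Ncapd2 (GRCm38.p6 chr6:125191587-125191736): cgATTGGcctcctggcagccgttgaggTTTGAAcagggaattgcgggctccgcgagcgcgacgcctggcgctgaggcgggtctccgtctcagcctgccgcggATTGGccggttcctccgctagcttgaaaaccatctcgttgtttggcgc
Mki67 (GRCm38.p6 chr7:135716380-135716529): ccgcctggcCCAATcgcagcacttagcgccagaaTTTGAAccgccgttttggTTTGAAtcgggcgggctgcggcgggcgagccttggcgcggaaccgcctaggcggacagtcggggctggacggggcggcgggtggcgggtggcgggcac

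In Cdk1 the CHR letters began 71 and 15 bases before the start and the inverted CCAAT letters 80 and 48 bases before it, while in Cdc20 the CHR began 18 bases before the start. Ncaph, which rose, is shown because its window held neither set, and Nek7, a Nek kinase, because its window held neither and its log2 fold change was the lowest among the tested members with a window. Nek7 did not pass the test. Other members below 0 did hold letters, such as Anapc16 (CHR, log2 fold change -0.11) and Haus7 (CCAAT, -0.12).
Ncaph (GRCm38.p6 chr2:127133955-127134104): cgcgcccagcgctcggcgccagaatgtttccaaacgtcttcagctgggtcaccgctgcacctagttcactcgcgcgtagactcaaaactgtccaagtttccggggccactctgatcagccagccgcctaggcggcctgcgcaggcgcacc
Nek7 (GRCm38.p6 chr1:138619758-138619907): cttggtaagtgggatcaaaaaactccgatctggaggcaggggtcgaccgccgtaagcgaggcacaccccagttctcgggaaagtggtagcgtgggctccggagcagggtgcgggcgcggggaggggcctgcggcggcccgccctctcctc

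**Figure D2:**
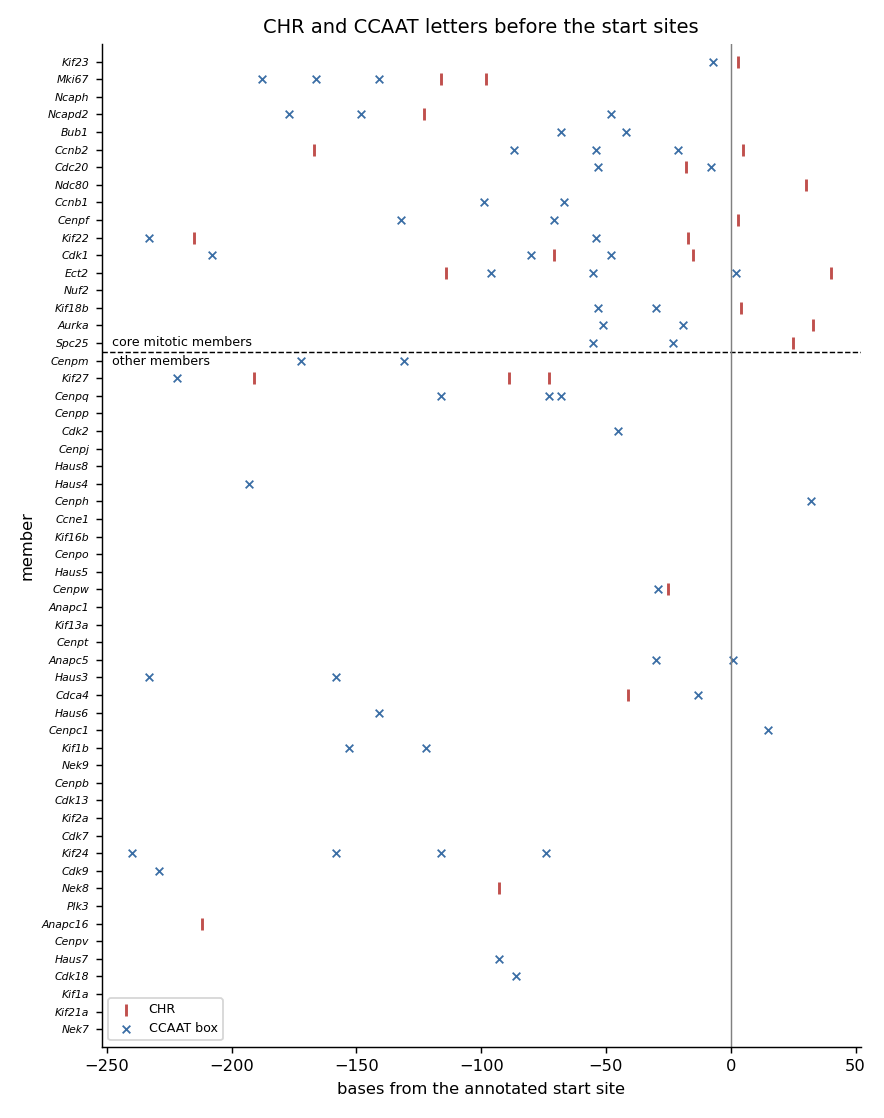
Position of the first base of each CHR (red bars) and CCAAT (blue crosses) match, on either strand, in bases from the annotated start (x axis) for the 56 tested members with a window (y axis), with the 17 core members above the dashed line. Most core members hold a CHR match near the start, 13 of 17, compared with 5 of 39 below the line.

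Of the 6 tested cyclins, Ccna2, Ccnb1, Ccnb2 and Ccne1 were higher in all 3 mutant cultures and 2 of them rose. Among all genes tested, 12.0% were higher in all 3 mutant cultures and 1.04% rose. The D cyclins Ccnd1 and Ccnd2, which respond to growth factors and act before S phase, overlapped between genotypes. The difference between the types of cyclin was not tested. Cyclin A2 (Ccna2, chr3:36564866-36572150), which acts with Cdk2 in S phase and with Cdk1 at mitotic entry, measured 66.5, 72.9 and 73.3 CPM in WT and 90.5, 97.4 and 99.8 CPM in Nipbl+/- cultures. The groups stood well apart, and the log2 fold change was 0.44 (SE 0.06, adjusted p = 0.0213). Cyclin B2 (Ccnb2) measured 29.9, 32.0 and 32.5 CPM against 41.2, 39.5 and 46.0 CPM, with a log2 fold change of 0.42 (SE 0.07, adjusted p = 0.033). It rose too, with Nipbl+/- replicate 3 the highest. A pseudogene copy is listed separately in the files, and how reads were shared between them is not given in the sources used here.

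Cyclin B1 (Ccnb1), the main partner of Cdk1 in mitosis, measured 62.0, 73.7 and 69.4 CPM in WT and 83.7, 86.3 and 101 CPM in Nipbl+/- cultures. The groups did not overlap, but the adjusted p was 0.0621 with a log2 fold change of 0.40 (SE 0.09). Cyclin E1 (Ccne1), which drives entry into S phase with Cdk2, had 40.2, 42.7 and 41.0 CPM against 46.8, 50.1 and 53.6 CPM, a log2 fold change of 0.28 with an adjusted p of 0.0681. Both genes were therefore above WT in all 9 pairs of cultures without passing the test. Cdc25c, a phosphatase that activates Cdk1, had a log2 fold change of 0.30 (SE 0.12, adjusted p = 0.268). The meiotic cyclin Ccna1 and Ccnb3 had too few reads to test, at most 5 counts in any culture.

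Cyclin D1 (Ccnd1) measured 367, 251 and 385 CPM in WT and 191, 228 and 349 CPM in Nipbl+/- cultures. Its cultures spread widely within each genotype and overlapped, with Nipbl+/- replicate 3 near the WT level and WT replicate 2 near the others. The log2 fold change of -0.38 (SE 0.23, adjusted p = 0.441) was within this spread, with a 95% interval from -0.91 to 0.14. Cyclin D2 (Ccnd2) measured 1398, 1317 and 1389 CPM in WT and 1228, 1331 and 1301 CPM in Nipbl+/- cultures, a log2 fold change of -0.09 (SE 0.05, adjusted p = 0.393). Per length, cyclin D2 was the member with the highest level, at a mean of 225 RPKM over the 6 cultures, and cyclin D1 had 74.4 RPKM. Cyclin A2 had 23.0 and cyclin B2 23.2 RPKM, so the D cyclins stood far above the cyclins that rose.

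Of the 8 tested cyclin-dependent kinases, 2 rose, beside 1.04% of all genes. Cdk1 (chr10:69336635-69352938), the kinase of mitotic entry, measured 80.2, 88.0 and 79.0 CPM in WT and 109, 97.4 and 116 CPM in Nipbl+/- cultures, a log2 fold change of 0.38 (SE 0.08, adjusted p = 0.0469). Cdk2, the kinase of S phase, measured 28.6, 31.6 and 28.9 CPM against 36.5, 36.9 and 39.1 CPM, with 0.33 (SE 0.07, adjusted p = 0.0469). Both rose, close to the threshold, and in both the lowest mutant culture was above the highest WT culture. With upper-quartile scaling neither passed, at adjusted p-values of 0.0554 for Cdk1 and 0.0573 for Cdk2 in edgeR. The other 6 kinases did not pass the test. Cdk7, Cdk9 and Cdk13, which act on RNA polymerase II, had log2 fold changes between -0.06 and 0.01. Cdk5, known for its role in neurons, Cdk14 and Cdk18 lay between -0.14 and 0.01, with adjusted p-values of 0.37 to 0.975.

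**Figure D3:**
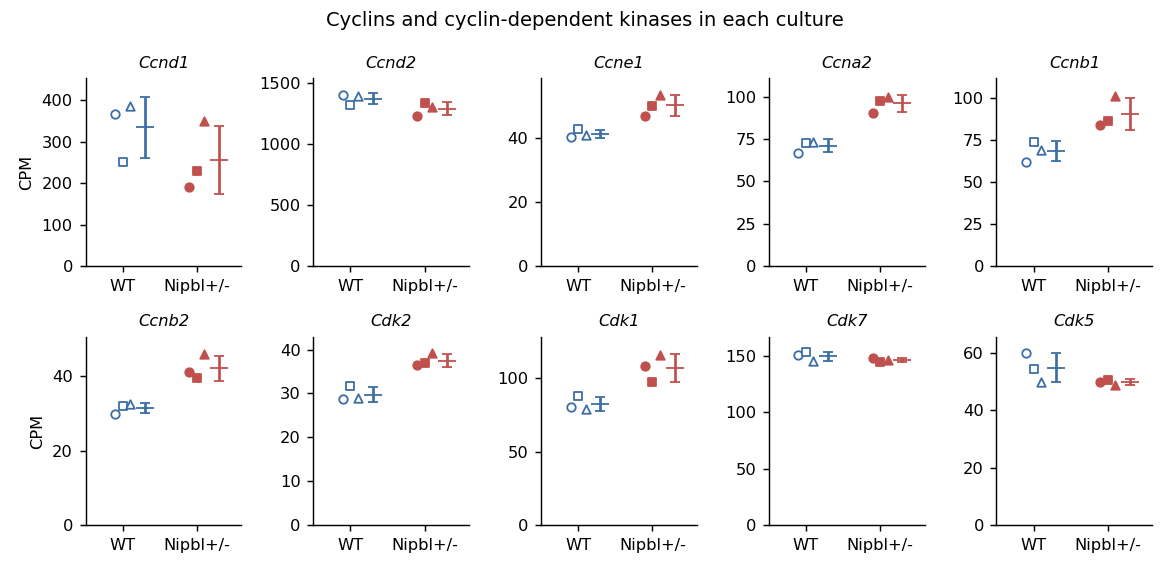
CPM (y axes, from 0) of 6 cyclins and 4 cyclin-dependent kinases in the 3 WT (open blue) and 3 Nipbl+/- (filled red) cultures, with the symbol shape giving the replicate and bars giving mean and SD. Ccna2, Ccnb1, Ccnb2, Ccne1, Cdk1 and Cdk2 do not overlap between genotypes, while Ccnd1, Ccnd2, Cdk5 and Cdk7 do.

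Both condensin members rose, beside 1.04% of all genes. Ncaph, a subunit of condensin I, measured 26.9, 30.0 and 30.0 CPM in WT and 37.6, 42.2 and 44.8 CPM in Nipbl+/- cultures, a log2 fold change of 0.52 (SE 0.08, adjusted p = 0.0261). Ncapd2, another condensin I subunit, measured 37.2, 35.9 and 37.0 CPM against 50.6, 45.7 and 55.2 CPM, with 0.46 (SE 0.07, adjusted p = 0.0283). Every mutant culture stood above every WT culture in both genes. Scarna10, a small Cajal body RNA gene, lies within Ncapd2 on the same strand, and how reads of overlapping genes were assigned is not given in the sources used here. The other names of the condensin group, Smc2 and Smc4 among them, lie on the plus strand with no reads counted.

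Genes of the spindle and of cell division followed the same pattern. All 5 tested members were higher in all 3 mutant cultures (12.0% of all genes were), and 3 rose (1.04% of all genes did). Kif23 (chr9:61917280-61946799), the kinesin of the centralspindlin complex that is needed for cytokinesis, measured 36.3, 44.6 and 39.6 CPM in WT and 55.3, 61.7 and 63.8 CPM in Nipbl+/- cultures. Its log2 fold change of 0.59 (SE 0.09, adjusted p = 0.0234) was the highest among the members that passed the test. Ect2, the exchange factor that activates RhoA at the cleavage furrow, rose by 0.35 (SE 0.05, adjusted p = 0.0234) and Kif2c, a kinesin that depolymerizes microtubules at centromeres, by 0.42 (SE 0.07, adjusted p = 0.0283) on the log2 scale. Kif22, a chromokinesin with a pseudogene copy in the files, and Kif18b, a kinesin of astral microtubules, had 0.38 and 0.32 with adjusted p-values of 0.0681 and 0.103.

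Kinetochore genes were more mixed. Of 15 tested, 13 were above 0, 8 were higher in all 3 mutant cultures, 1 rose, and the median log2 fold change was 0.26. Among all genes tested, 48.4% were above 0, 12.0% were higher in all 3 mutant cultures and 1.04% rose. In the Ndc80 complex, which binds spindle microtubules, Ndc80 measured 24.4, 30.4 and 28.7 CPM in WT and 35.6, 37.5 and 37.4 CPM in Nipbl+/- cultures, a log2 fold change of 0.41 (SE 0.09, adjusted p = 0.0568). Nuf2 and Spc25 had 0.35 and 0.26 (adjusted p = 0.0566 and 0.0801), whereas the 4th subunit, Spc24, measured 20.7, 18.9 and 21.7 CPM against 20.7, 19.1 and 18.2 CPM. Spc24 was thus the only core mitotic gene with a log2 fold change below 0, at -0.08 (SE 0.09, adjusted p = 0.7).

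Cenpf, a large protein of the outer kinetochore that accumulates in G2 phase, was higher in all 9 pairs of cultures, at 0.40 (SE 0.10, adjusted p = 0.0825). The other 10 Cenp members of the kinetochore, many of which belong to the constitutive inner centromere, had a median of 0.17. Of these 10, 1 rose, Cenpq, beside 1.04% of all genes. Cenpq measured 12.1, 12.3 and 12.0 CPM in WT and 15.9, 16.3 and 16.5 CPM in Nipbl+/- cultures, with little spread in either genotype (log2 fold change 0.42, SE 0.08, adjusted p = 0.044). It did not pass with the Xist level as a covariate (adjusted p = 0.0623) or with any of the 6 cultures left out, its log2 fold change staying between 0.41 and 0.43. A gene on the plus strand overlaps Cenpq, and whether reads were counted by strand is not given in the sources used here. Cenpm had the highest log2 fold change of all members, 0.61, but at 1.87 to 4.01 CPM its error was large (SE 0.23, adjusted p = 0.239) and the groups overlapped. Cenpb, which binds centromeric repeats, stood at 172, 162 and 176 CPM in WT and 167, 163 and 185 CPM in Nipbl+/- cultures, a log2 fold change of 0.01 (SE 0.06).

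The checkpoint kinase Bub1 measured 40.9, 46.6 and 42.5 CPM in WT and 56.4, 55.6 and 64.2 CPM in Nipbl+/- cultures. It rose by 0.44 on the log2 scale (SE 0.08, adjusted p = 0.0328). Cdca8, which encodes borealin of the chromosomal passenger complex, had 0.31 (SE 0.09, adjusted p = 0.142), and the spindle pole kinase Aurka had 36.7, 35.8 and 42.0 CPM against 30.6, 32.5 and 29.8 CPM in WT (0.30, SE 0.08, adjusted p = 0.0945). Neither passed the test, although no culture overlapped the other genotype. Plk3, a stress-responsive relative of Plk1, had -0.08 (SE 0.11, adjusted p = 0.747).

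Cdc20, the activator of the anaphase-promoting complex at anaphase, missed the threshold by the least. It measured 56.4, 63.9 and 67.1 CPM in WT and 78.2, 79.2 and 91.1 CPM in Nipbl+/- cultures, a log2 fold change of 0.41 (SE 0.08, adjusted p = 0.0501). The standing subunits of that complex differed less, with 0.12 for Anapc1 (adjusted p = 0.242), 0.10 for Anapc5 (adjusted p = 0.367) and -0.11 for Anapc16 (adjusted p = 0.317). Per length, Anapc5 was the second most expressed member at 125 RPKM, and Cdc20 had 37.7 RPKM. The activator therefore differed from WT by more than the subunits did, though this contrast between genes was not tested.

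Mki67 encodes the nuclear protein Ki-67, which coats mitotic chromosomes and is used to mark proliferating cells. It measured 143, 174 and 172 CPM in WT and 228, 219.6 and 254 CPM in Nipbl+/- cultures, a 1.44-fold difference (log2 0.52, SE 0.09, adjusted p = 0.0311). The gene spans chr7:135689788-135716379 and no other listed gene overlaps it. Cdca2, which targets a phosphatase to chromatin as cells leave mitosis, rose from 19.4, 19.8 and 18.6 to 27.4, 26.1 and 28.2 CPM (log2 0.50, SE 0.07, adjusted p = 0.0213). Both had every mutant culture above every WT culture.

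**Figure D4:**
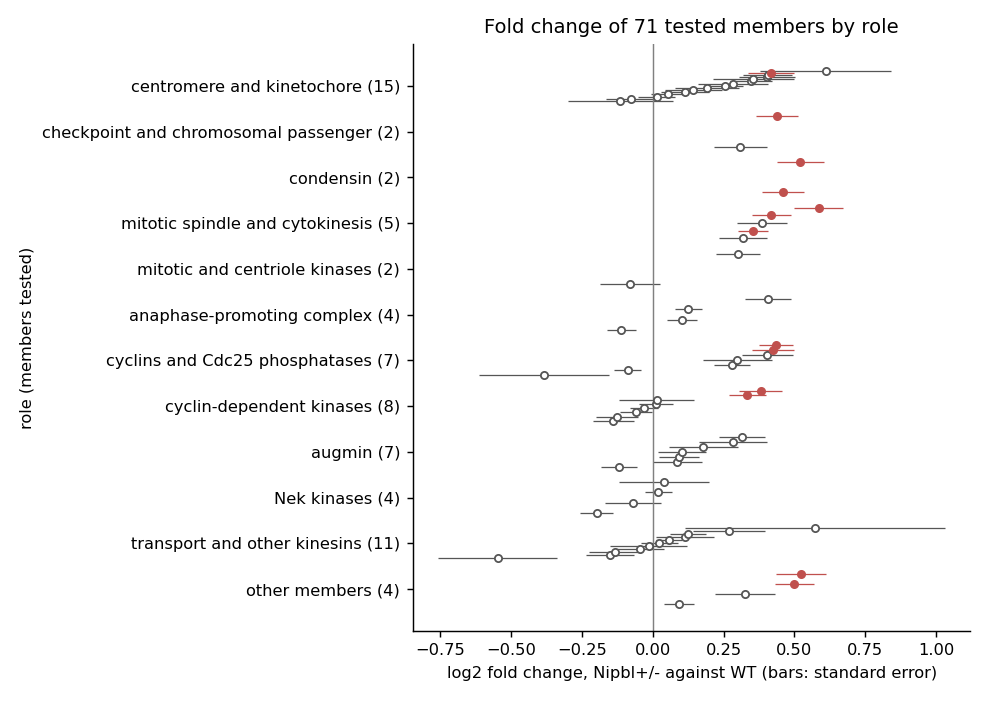
Log2 fold change of Nipbl+/- against WT (x axis, bars are standard errors) for the 71 tested members, grouped by role with the number tested in parentheses (y axis). Filled red points mark the 13 members that passed the test, and 5 groups hold none of them. These are the mitotic and centriole kinases, the anaphase-promoting complex, augmin, the Nek kinases and the transport kinesins. As 1.04% of all genes rose and 0.916% fell, holding none is near the background for groups this small.

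Augmin, the Nek kinases and the kinesins of transport and other roles made up 22 of the tested members. Of the 22, 0 passed the test with edgeR, beside the 1.04% of all genes that rose and 0.916% that fell, so their lack of calls is near the background and is not a result about these families. Augmin, which branches spindle microtubules, had 7 tested members, of which 0 passed the test with edgeR or DESeq2 and 2 were higher at an unadjusted p under 0.05, with a median log2 fold change of 0.10 and a range from -0.12 in Haus7 to 0.31 in Haus8. Nek kinases had 4 tested members and a median of -0.03, with 0 called by either tool and 1 lower at an unadjusted p under 0.05. Nek7, which also acts in the inflammasome, measured 193, 204 and 206 CPM in WT and 165, 175 and 185 CPM in Nipbl+/- cultures and was lower in all 9 pairs (-0.20, SE 0.06, adjusted p = 0.134). Of the 11 tested kinesins of transport and other roles, 0 passed with either tool, 1 was lower at an unadjusted p under 0.05, 6 were above 0 and 5 below, and the median was 0.02. Kif5b, the ubiquitous kinesin-1 motor, was the most expressed kinesin at 110 RPKM and stood at 0.06 (SE 0.05, adjusted p = 0.588). Its relative Kif5a, a neuronal motor, had the lowest log2 fold change of all members, -0.55 (SE 0.21, adjusted p = 0.242), at 1.83 to 3.48 CPM. Kif21a and Kif1a had -0.15 and -0.13 (adjusted p = 0.419 and 0.507). On the other side, Kif16b and Kif13a had 0.27 and 0.12 (adjusted p = 0.328 and 0.366). Kif27 had 0.57 at only 0.134 to 0.541 CPM (adjusted p = 0.583). Kif12, Kif2b, Nek5 and Nek11 had too few reads to test, with at most 6 counts in any culture.

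Genes of the cell cycle outside the name rule were read in the same fit. Among all genes tested, 48.4% were above 0 and 1.04% rose. Of 65 further mitosis genes, 31 were tested, 30 were above 0 and 4 rose, with a median log2 fold change of 0.31. The 4 were Top2a, the topoisomerase that untangles sister chromatids (0.45, adjusted p = 0.0246), Anln, a scaffold of the cleavage furrow (0.41, adjusted p = 0.0323), Dlgap5, a spindle protein (0.39, adjusted p = 0.0366), and Hmmr, another spindle protein (0.30, adjusted p = 0.0422). Top2a measured 240.3 to 257 CPM in WT and 323 to 378 CPM in Nipbl+/- cultures. Of 48 DNA replication genes, 27 were tested, 26 were above 0 and 3 rose, with a median of 0.21. Mcm10 (0.52, adjusted p = 0.0459), Mcm6 (0.45, adjusted p = 0.0283) and Mcm7 (0.31, adjusted p = 0.0291) all belong to the machinery that opens DNA for copying. Both lists were thus shifted in the direction of the core mitotic genes, and all 3 lists had their highest culture in Nipbl+/- replicate 3. The lists were written with earlier results of these data known and are not independent evidence of the direction.

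Genes that restrain the cycle were mixed in direction. Of 20 listed inhibitors and regulators, 12 were tested, 5 were above 0, 7 were below and 0 passed the test of edgeR, with a median of -0.06. As 1.04% of all genes rose and 0.916% fell, 0 calls is near the background and is not a result about these genes. At an unadjusted p under 0.05, 2 were higher and 3 lower, beside 8.98% and 7.95% of all genes. DESeq2 called 1 higher and 2 lower, beside 237 and 212 of 9061 genes. In 3 of them all mutant cultures stood above all WT cultures and in 4 below, beside 12.0% and 10.8% of all genes. Cdkn2a, which encodes p16 and Arf, measured 154, 127 and 142 CPM in WT and 97.0, 115 and 93.1 CPM in Nipbl+/- cultures, a log2 fold change of -0.47 (SE 0.10, adjusted p = 0.0536). Its groups did not overlap. Cdkn2c, which encodes p18, had the highest value, 0.40 (SE 0.13, adjusted p = 0.177). Nothing was counted for Cdkn1a, Cdkn1b and Trp53, which lie on the plus strand.

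**Figure D5:**
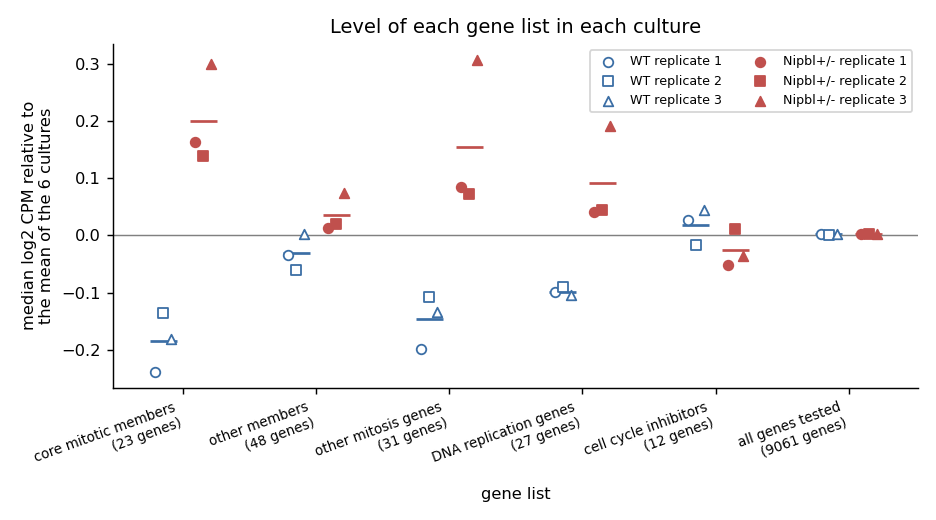
Median over the genes of each list of log2 CPM relative to the mean of the 6 cultures (y axis), for each culture and list (x axis), with WT in open blue, Nipbl+/- in filled red, the symbol shape giving the replicate and lines giving the mean of 3 cultures. For the core mitotic members the 3 WT cultures lie between -0.24 and -0.14 and the Nipbl+/- cultures between 0.14 and 0.30, while the cell cycle inhibitors overlap.

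Markers of other cells were measured beside these results. The fibroblast marker Fn1 was abundant, 10 of 12 fibroblast markers lie on the plus strand, and the summed level of the list was 14398 to 18234 CPM. All 10 tested macrophage markers were above 0 (48.4% of all genes were), and their median log2 fold change was 1.04. Of the 10, 0 passed the test of edgeR, which is near the background, as 1.04% of all genes rose. At an unadjusted p under 0.05, 9 were higher, beside 8.98% of all genes. DESeq2 called 5 higher, beside 2.62% of all genes. The summed level of the macrophage markers was 60.8 to 80.4 CPM in WT and 97.6 to 195 CPM in Nipbl+/- cultures, without overlap. It was highest in Nipbl+/- replicate 2, at 195 CPM, and lowest of that genotype in replicate 3, at 97.6 CPM, the culture with the highest core mitotic level. Endothelial markers summed to 69.3 to 104 CPM with overlapping groups. Epithelial markers summed to 14.4 to 15.8 CPM in WT and 11.5 to 14.1 CPM in Nipbl+/- cultures, every mutant culture below every WT culture. Single epithelial markers went both ways, however. Of 3 tested, 2 were above 0 and 1 below, with log2 fold changes from -0.41 to 1.48 and a median of 0.75. Muscle markers summed to at most 0.186 CPM, and neural markers to 0.325 to 1.72 CPM. The part of other cell types in the mitotic genes was not tested.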

How the data were processed

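Per the labels and the methods, the authors depleted total RNA of rRNA, used the TruSeq RNA kit, aligned reads to mm10 with TopHat2 2.0.10 and deposited raw counts of reads per gene. The deposited RPKM, which scale counts by gene length and library size, served only to compare levels between genes. The counting tool and its use of strand are not given in the sources used here.

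Genes kept by filterByExpr (minimum count 10) were scaled with TMM, and the genotypes were compared by edgeR 4.0.16 (quasi-likelihood, R 4.3.3, Benjamini-Hochberg) in all 6 cultures without covariates. Standard errors were derived from the log2 fold change and its F statistic, and the steps were checked on simulated data. Chi-square per degree of freedom between replicates was 7.85 to 25.7, so none were merged. Alternatives were other scalings and filters, DESeq2 1.42.0, edgeR's exact and likelihood ratio tests, the replicate block, the Xist level as a covariate and each culture left out.

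Named by rule were Nipbl, members that passed the test, the 8 highest and 8 lowest fold changes with average log2 CPM above 0, the member with the highest RPKM in each role, markers such as Mki67, and in other lists the genes that passed or else both extremes. Other genes named were chosen after their values were seen. Members and lists were chosen with earlier results of these data known. Motif letters were searched on both strands of RefSeq windows.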

Additional observations from a re-analysis of the deposited data

How the results depend on the processing

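The number of members that rose was 13, and DESeq2, the exact test and the likelihood ratio test of edgeR each called 20. It lay between 11 and 19 with other scalings, filters or the Xist covariate, and between 0 and 16 with 1 culture left out. No member fell in any setting. The median log2 fold change of the tested members was 0.18 with library size alone, which moved the median of all genes from -0.01 to 0.03. The median of the core mitotic genes ranged from 0.33 to 0.44 with 1 culture left out, and 22 of 23 were above 0 in every setting. In the fits with 1 culture left out, the lack of overlap in these genes made that direction nearly certain. Nipbl ranged from -0.47 to -0.39, and its adjusted p was 0.0755 without WT replicate 1, 0.0864 without Nipbl+/- replicate 1 and 0.0772 without Nipbl+/- replicate 2. Cenpb ranged from -0.044 to 0.052, below 0 without WT replicate 2 (-0.021) or Nipbl+/- replicate 3, when cultures were left out. Leaving out a culture leaves fewer samples in the fit, and no other cause was tested.

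With the replicate number as a replicate block, 6 members rose (0.375% of all genes did), 5 of them among the 13. The labels do not say that a number pairs cultures, and the same-number correlations of deviations from the group means lay between -0.14 and -0.04. Of the 6 cultures, 0 correlated best with their own number. Each same-number pair, however, joined a culture expressing Ddx3y with a culture expressing Xist. Sex-linked and other differences were thus mixed in these correlations, which cannot show whether a number pairs cultures.

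Genes on the plus strand, 78 of 155 matching names, cannot be read from these files. Of the members, 34 overlap another listed gene, 4 of them among the 13 that rose. Of the 12 core genes that did not pass the test, 11 had an unadjusted p under 0.05. With 3 cultures a genotype, an exact permutation test of a single gene could not go below 0.1.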
